A study of Mus musculus with 16 samples.

Results

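The inflammasome and interleukin-1 genes described here are Nlrp3, Mefv, Pycard, Casp1, Gsdmd, Il1b, Il1r1, Il1rn, Il18 and Il1rap. They were taken by symbol from the table of read counts per gene, and all 10 were found among its 41079 genes. All 10 also passed the filter on low counts that left 16742 genes for testing. The study asked how loss of the glucagon receptor from the liver alters aged mice of each sex, and RNA of whole livers from C57BL/6J mice aged 20 to 22 months was sequenced after poly-A selection. Every mouse carried Gcgr alleles in which several exons lie between LoxP sites. LKO mice also carried Cre under the Albumin promoter, which is active in hepatocytes, and CRE- controls carried the same floxed alleles without Cre. Each sex had 4 livers of CRE- controls and 4 of LKO mice, and a library is named here by its group and replicate number.

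Inflammasomes are protein platforms of the cytosol in which a sensor recruits an adaptor and a protease that cuts interleukin precursors and a pore-forming protein. The released cytokines bind a receptor and its accessory chain on neighbouring cells, and a soluble antagonist competes for the same receptor. In liver the sensors and cytokines are known mainly from Kupffer cells and other myeloid cells, whereas hepatocytes carry the receptor chains and answer with acute-phase proteins.

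Between 33268424 and 56488920 reads per library were counted on genes. Group medians ran from 37348750.5 in livers of female LKO mice to 46840916 in those of female controls. Values are given as CPM, the counts scaled to the library total after TMM normalization, which sets libraries to a common scale by a trimmed mean. The targeted gene Gcgr was at 162, 208, 201 and 180.0 CPM in female CRE- controls 1 to 4 and at 48.8, 132, 119 and 93.6 CPM in female LKO mice 1 to 4. In males it was at 190.4, 193, 127 and 189.6 CPM in CRE- controls 1 to 4 and at 117, 136, 129.9 and 160.3 CPM in LKO mice 1 to 4. Every female LKO library lay below every female control. The library labelled male CRE- replicate 3 lay within the range of the male LKO libraries and apart from the other male controls. The counts cover all exons of Gcgr, also those outside the floxed stretch, so they do not measure the deletion itself.

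Some libraries stood apart over all genes, as seen in the median over genes of a chi-square between the counts of each pair of livers in a group. It was 26.9 to 33.0 between female LKO replicate 1 and the others of its group, and 8.66 to 12.4 among those others. Between male CRE- replicate 3 and the other male controls it was 20.4 to 30.3, and 10.4 to 15.8 among the rest. Female CRE- replicate 4 was at 13.2 to 15.2 with the other female controls, which were at 3.82 to 7.43 among themselves. For male LKO replicate 1 every pair lay above all pairs of the other male LKO livers, at up to 11.15 beside 3.82 to 6.22. The part of this in the values below was not tested beyond leaving out each library.

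Gcgr fell by 0.93 on the log2 scale in females (SE 0.25), with an adjusted p of 0.0443 by edgeR's quasi-likelihood test and Benjamini-Hochberg adjustment. In the same edgeR test and adjustment that call was lost when female CRE- replicate 1, 2, 3 or 4 was left out (adjusted p = 0.0573, 0.136, 0.112 and 0.0907). It was also lost without female LKO replicate 1, 3 or 4 (adjusted p = 0.0802, 0.0519 and 0.0841 by the same edgeR test and adjustment). The fit shares its spread with the male libraries, and the female call of Gcgr was lost without male CRE- replicate 1 or 4 or any male LKO library as well (adjusted p up to 0.0661 by the same edgeR test and adjustment). In males the log2 fold change of Gcgr was -0.37 (SE 0.24, adjusted p = 0.671 by the same edgeR test and adjustment), and it was -0.51 without male CRE- replicate 3. The difference of the Gcgr fold changes between the sexes was -0.57 (SE 0.35, adjusted p = 0.412 by the same edgeR test and adjustment).

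Among the 10 genes, the receptor Il1r1 and the antagonist Il1rn rose and the receptor accessory chain Il1rap fell in livers of female LKO mice. Il1r1 was 3.25-fold higher, Il1rn 3.63-fold higher and Il1rap 2.17-fold lower than in female CRE- controls. The other 7 genes did not pass the threshold of 0.05 on the adjusted p by edgeR's quasi-likelihood test and Benjamini-Hochberg adjustment. This made 3 of 10 genes called in females, where 4.24% of all genes tested were called (710 of 16742). At an unadjusted p under 0.05 there were 8 of 10, against 3584 of 16742. The median log2 fold change of the 10 genes was 1.25, beside 0.04 over all genes tested, and 7 of 10 were positive.

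The count of 3 genes depended on single libraries. It was 1, Il1rap alone, without female CRE- replicate 2, 3 or 4 or without female LKO replicate 4. Without female CRE- replicate 1 or female LKO replicate 1 it was 2, and without female LKO replicate 2 it was 4, with Nlrp3 added. Over the same 8 fits the number of genes called of all those tested lay between 87, without female CRE- replicate 2, and 1310, without female LKO replicate 2. Il1rap was called in each of the 8. With all libraries DESeq2 called 5 of the 10 genes in females, adding Nlrp3 and Mefv, where it called 11.1% of all genes (1816 of 16359). Limma-voom with sample quality weights called 7, adding Casp1 and Il1b as well, where it called 11.8% of all genes (1976 of 16742).

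In males, 0 of 10 genes were called by edgeR, where 0.454% of all genes tested were called (76 of 16742). At an unadjusted p under 0.05 the count was also 0 of 10 in edgeR, against 1595 of 16742, and DESeq2 and limma-voom with sample quality weights called 0 of 10 after adjustment, beside 2.03% and 0.884% of all genes. The male log2 fold changes lay between -0.65 for Nlrp3 and 0.13 for Casp1, with a median of -0.18 beside -0.01 over all genes tested. Their adjusted p by edgeR's quasi-likelihood test and Benjamini-Hochberg adjustment lay between 0.673 and 0.974.

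The difference of the LKO effect between the sexes was tested as an interaction. With edgeR 0 of 10 genes were called, where 0% of all genes tested were called. At an unadjusted p under 0.05 there were 7 of 10, against 2672 of 16742. DESeq2 called 3 (Nlrp3, Il1r1 and Il1rap), beside 2.22% of all genes (371 of 16684), and limma-voom called Il1rap, beside 0.173% (29 of 16742). The interaction was -1.19 for Il1rap (SE 0.26, unadjusted p = 0.000327) and its adjusted p was 0.135 by edgeR's quasi-likelihood test and Benjamini-Hochberg adjustment. The fold changes of the 10 genes are therefore given for each sex side by side, without a call that the sexes differed.

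Groups were also compared by whether their values overlapped, with no test. In females every LKO library lay above every control for 5 of 10 genes (Nlrp3, Mefv, Il1b, Il1r1 and Il1rn), a pattern held by 5.20% of all genes tested. Every female LKO library lay below every control for 1 of 10 genes, Il1rap, beside 6.42% of all genes tested. In males this held for 0 of 10 genes in either direction, beside 3.57% of all genes tested with every LKO library above and 2.93% with every LKO library below.

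**Figure D1:**
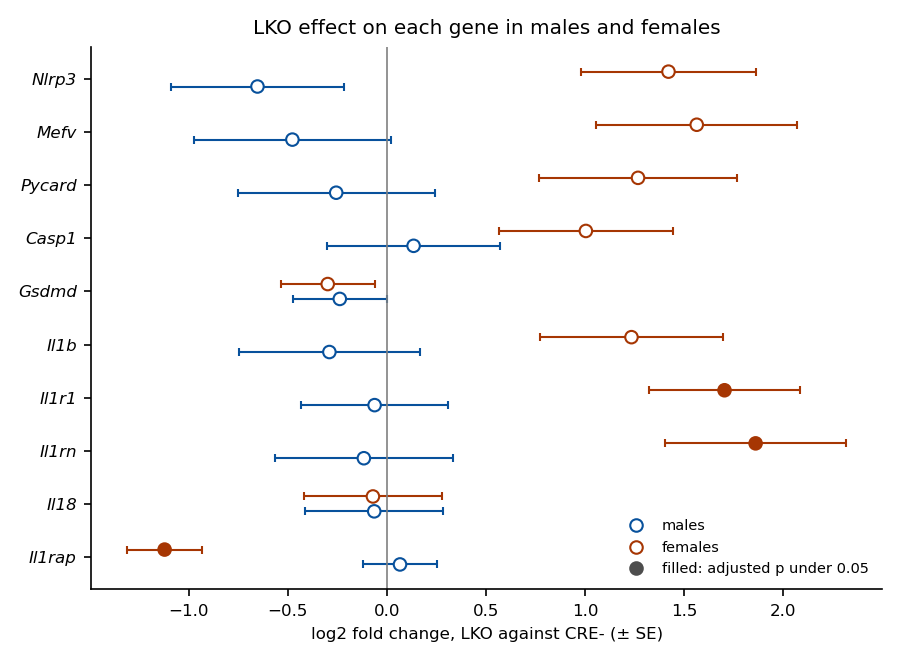
Log2 fold change of LKO against CRE- livers (horizontal axis) for each of the 10 genes in males and females, as fitted by edgeR, with bars of 1 SE. In females 7 of 10 estimates lie above 0 and Il1rap lies at -1.12, whereas male estimates lie between -0.65 and 0.13.

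Nlrp3 encodes a sensor of membrane damage and other danger signals. Nlrp3 was at 2.48, 1.65, 1.65 and 2.08 CPM in female CRE- controls 1 to 4 and at 9.92, 2.57, 4.55 and 4.05 CPM in female LKO mice 1 to 4. Female LKO replicate 1 stood highest, and replicate 2 lay just above the highest control. In males Nlrp3 was at 4.83, 1.40, 2.18 and 3.15 CPM in CRE- controls 1 to 4 and at 3.09, 1.62, 1.19 and 1.46 CPM in LKO mice 1 to 4. The male groups overlapped, with male CRE- replicate 1 highest. The female log2 fold change of Nlrp3 was 1.42 (SE 0.44) with an adjusted p of 0.0753 by edgeR's quasi-likelihood test and Benjamini-Hochberg adjustment. By the same edgeR test and adjustment the adjusted p was 0.0341 without female LKO replicate 2 and up to 0.273 without another female library. Without female LKO replicate 1 the log2 fold change of Nlrp3 was 0.94. Nlrp3 was called in females with a block by replicate number and with a block by the number in the library name. The interaction for Nlrp3 was 2.07 (SE 0.62), with an adjusted p of 0.200 by the same edgeR test and adjustment.

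Mefv encodes pyrin, a sensor of the inflammasome. Mefv was at 2.35, 0.973, 1.44 and 0.588 CPM in female CRE- controls 1 to 4 and at 2.95, 3.12, 4.26 and 5.52 CPM in female LKO mice 1 to 4. The female groups did not overlap, and female CRE- replicate 1 was the control closest to the LKO libraries. Male values of Mefv were 4.20, 1.60, 1.48 and 3.33 CPM in CRE- controls 1 to 4 and 3.86, 1.62, 1.34 and 0.810 CPM in LKO mice 1 to 4. They overlapped, and male LKO replicate 1 lay near the highest control. The female log2 fold change of Mefv was 1.56 (SE 0.51, adjusted p = 0.0851 by edgeR's quasi-likelihood test and Benjamini-Hochberg adjustment), and the interaction was 2.04 (SE 0.71). Mefv was called in females with a block by replicate number, but not with a block by the number in the library name. Mefv had 22 to 233 counts per library, and that of 22 was the lowest of the 10 genes in any library.

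Pycard encodes ASC, the adaptor that joins sensors to the protease. Pycard was at 3.68, 1.99, 2.85 and 5.37 CPM in female CRE- controls 1 to 4 and at 16.5, 2.89, 7.06 and 6.91 CPM in female LKO mice 1 to 4. Female LKO replicate 1 stood far above the rest, replicate 2 lay among the controls, and the groups overlapped. Male values of Pycard were 5.34, 1.83, 1.98 and 6.63 CPM in CRE- controls 1 to 4 and 4.78, 2.56, 3.18 and 2.701 CPM in LKO mice 1 to 4. Its log2 fold change was 1.27 (SE 0.50) in females and -0.26 (SE 0.50) in males, neither of which passed the test. Without female LKO replicate 1 the female value of Pycard was 0.72.

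Casp1 encodes caspase-1, the protease that matures the cytokines. Casp1 was at 6.79, 4.69, 4.88 and 9.03 CPM in female CRE- controls 1 to 4 and at 14.1, 5.61, 13.5 and 17.6 CPM in female LKO mice 1 to 4. As for Pycard, female LKO replicate 2 lay among the controls and the other LKO libraries lay above them. In males Casp1 was at 6.96, 2.45, 1.87 and 7.82 CPM in CRE- controls 1 to 4 and at 7.10, 3.77, 6.38 and 3.75 CPM in LKO mice 1 to 4, and the groups overlapped. Its female log2 fold change was 1.0 (SE 0.44), which did not pass the test, and its male one 0.13 (SE 0.44).

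Gsdmd encodes gasdermin D, the protein that forms membrane pores once caspase-1 has cut it. Gsdmd was at 42.8, 33.9, 42.2 and 52.6 CPM in female CRE- controls 1 to 4 and at 25.1, 39.4, 38.2 and 36.7 CPM in female LKO mice 1 to 4. Only female LKO replicate 1 lay below the range of the female controls. In males Gsdmd was at 54.2, 30.3, 23.5 and 51.5 CPM in CRE- controls 1 to 4 and at 35.6, 34.0, 34.9 and 30.8 CPM in LKO mice 1 to 4, within the range of the controls. The log2 fold change of Gsdmd was -0.30 (SE 0.24) in females and -0.24 (SE 0.24) in males, and neither passed the test.

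Il1b encodes the cytokine interleukin-1 beta, a ligand made as a precursor for caspase-1. Il1b was at 5.35, 3.43, 2.97 and 3.31 CPM in female CRE- controls 1 to 4 and at 10.95, 6.11, 9.51 and 8.85 CPM in female LKO mice 1 to 4. The female groups did not overlap, and female LKO replicate 2 came closest to the controls. In males Il1b was at 6.90, 2.90, 1.35 and 8.81 CPM in CRE- controls 1 to 4 and at 7.31, 2.98, 3.23 and 2.84 CPM in LKO mice 1 to 4. Male LKO replicate 1 stood apart from the other male LKO libraries, yet within the range of the male controls. The female log2 fold change of Il1b was 1.23 (SE 0.46, adjusted p = 0.127 by edgeR's quasi-likelihood test and Benjamini-Hochberg adjustment), and the interaction was 1.52 (SE 0.65).

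Il18 encodes interleukin-18, the other precursor that caspase-1 matures. Il18 was at 15.1, 13.5, 18.3 and 24.4 CPM in female CRE- controls 1 to 4 and at 19.7, 11.4, 19.9 and 16.8 CPM in female LKO mice 1 to 4. The female groups overlapped almost completely. In males Il18 was at 17.6, 13.7, 3.74 and 18.3 CPM in CRE- controls 1 to 4 and at 13.6, 13.4, 10.5 and 13.5 CPM in LKO mice 1 to 4, and its lowest value was in the library labelled male CRE- replicate 3. The log2 fold change of Il18 was -0.07 (SE 0.35) in females and -0.06 (SE 0.35) in males. Il1b and Il18 therefore had unlike estimates in females, with the values of Il1b apart between the groups and those of Il18 mixed.

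**Figure D2:**
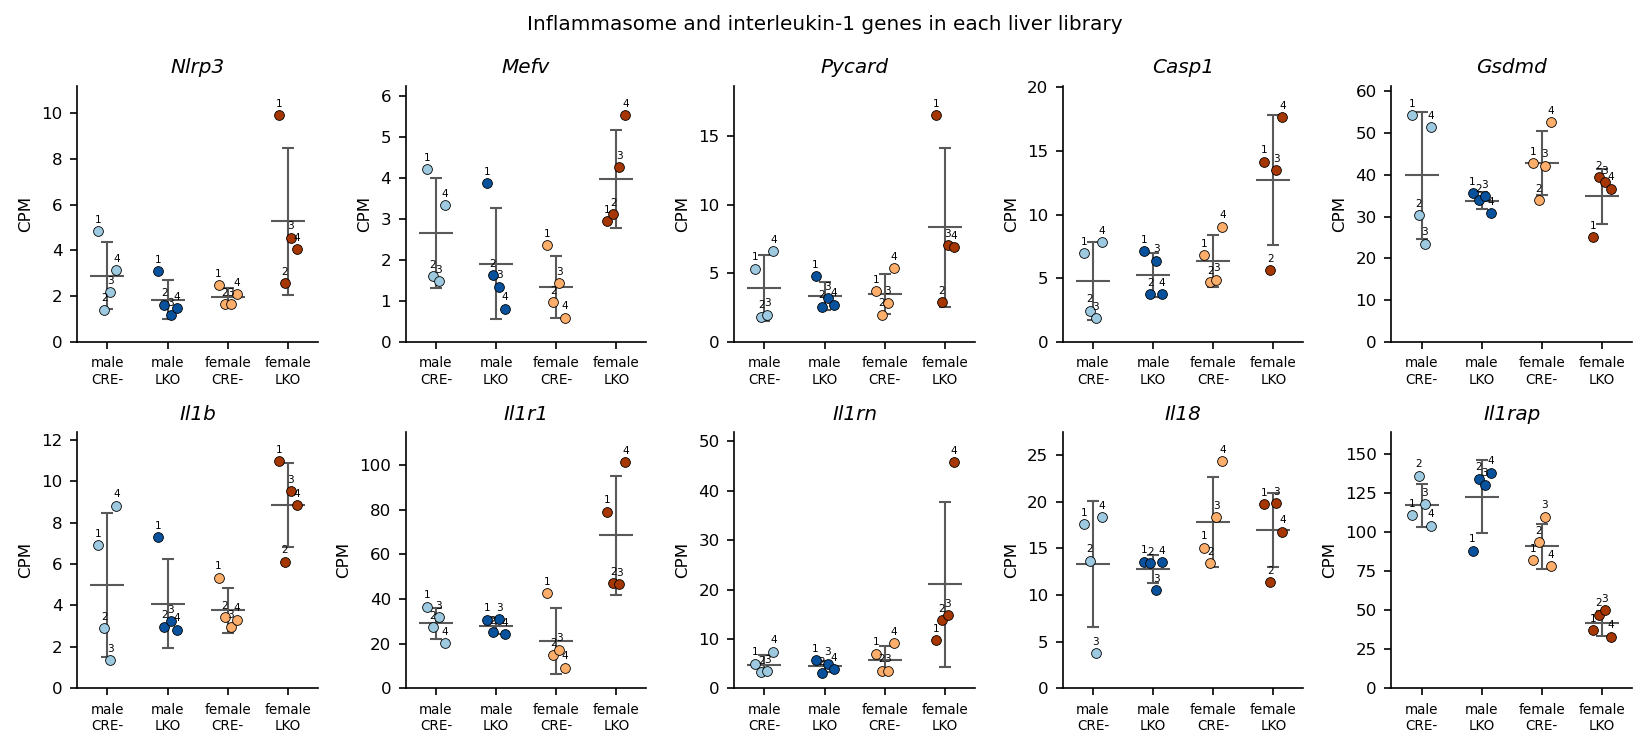
CPM of each of the 10 genes in the 16 libraries, 1 panel per gene, with groups on the horizontal axis, replicate numbers beside the points and bars for the mean and SD of 4 libraries. Female LKO livers lie above female controls for Il1r1 (46.8 to 101 CPM) and below them for Il1rap (33.1 to 49.9 CPM).

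Il1r1 encodes the signalling receptor for both forms of interleukin-1. Il1r1 was at 42.7, 15.1, 17.3 and 9.19 CPM in female CRE- controls 1 to 4 and at 79.2, 47.0, 46.8 and 101 CPM in female LKO mice 1 to 4. Every female LKO library lay above every control, but female CRE- replicate 1 was close to LKO replicates 2 and 3. In males Il1r1 was at 36.6, 27.4, 32.0 and 20.3 CPM in CRE- controls 1 to 4 and at 30.7, 25.3, 31.1 and 24.4 CPM in LKO mice 1 to 4. The male LKO values lay within the range of the male controls, and most female controls lay below all male libraries. Il1r1 rose in females by 1.70 on the log2 scale (SE 0.38, adjusted p = 0.0250 by edgeR's quasi-likelihood test and Benjamini-Hochberg adjustment), rank 222 of 16742 by p. The male log2 fold change of Il1r1 was -0.06 (SE 0.37), and the interaction was 1.76 (SE 0.53, adjusted p = 0.198 by the same edgeR test and adjustment).

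The call of Il1r1 in females was lost in 5 of the 8 fits without a female library. By the same edgeR test and adjustment, its adjusted p was 0.0913, 0.0816 and 0.0677 without female CRE- replicates 2, 3 and 4, and 0.0582 and 0.0563 without female LKO replicates 1 and 4. Without female CRE- replicate 1 the log2 fold change of Il1r1 was 2.30, with an adjusted p of 0.00538 by the same edgeR test and adjustment. With females fitted alone the adjusted p for Il1r1 was 0.0969 by the same edgeR test and adjustment.

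Il1rap encodes the accessory chain that the receptor needs in order to signal, and it was the best covered of the 10 genes, with 1143 to 6449 counts per library. Il1rap was at 82.0, 93.6, 109.9 and 78.3 CPM in female CRE- controls 1 to 4 and at 37.2, 47.1, 49.9 and 33.1 CPM in female LKO mice 1 to 4. The highest female LKO library lay well below the lowest control, and the spread within each group was small. In males Il1rap was at 111, 136, 118 and 104 CPM in CRE- controls 1 to 4 and at 88.2, 134, 130.5 and 138 CPM in LKO mice 1 to 4. Male LKO replicate 1 was lower than the other male LKO libraries, which reached or passed most controls. In females Il1rap fell by 1.12 on the log2 scale (SE 0.19, adjusted p = 0.00678 by edgeR's quasi-likelihood test and Benjamini-Hochberg adjustment), rank 42 of 16742 by p. The male log2 fold change of Il1rap was 0.07 (SE 0.19). With each female library left out in turn, the female value stayed between -1.22 and -1.02 and the adjusted p between 0.010 and 0.0295 by the same edgeR test and adjustment. In the same livers the receptor chain Il1r1 and its partner Il1rap thus moved in opposite directions.

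An unnamed transcript, Gm20319, overlaps Il1rap on the opposite strand and shares 353 exon bases with it. Counting used the strand, and 20584 reads in all libraries were assigned to Gm20319 beside 64254 to Il1rap. The female log2 fold change of Gm20319 was -0.74 (SE 0.28, adjusted p = 0.134 by edgeR's quasi-likelihood test and Benjamini-Hochberg adjustment). Smaller overlaps on opposite strands joined Il18 with Tex12 (93 exon bases) and Il1b with Il1bos (20 exon bases).

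Il1rn encodes the receptor antagonist, which occupies the receptor without signalling. Il1rn was at 6.99, 3.54, 3.59 and 9.09 CPM in female CRE- controls 1 to 4 and at 9.79, 13.8, 14.8 and 45.8 CPM in female LKO mice 1 to 4. The groups did not overlap, but female LKO replicate 1 lay close to female CRE- replicate 4, and female LKO replicate 4 stood far above all others. In males Il1rn was at 4.99, 3.30, 3.54 and 7.39 CPM in CRE- controls 1 to 4 and at 5.76, 3.08, 5.02 and 3.89 CPM in LKO mice 1 to 4, and the groups overlapped. Il1rn rose in females by 1.86 on the log2 scale (SE 0.46, adjusted p = 0.0352 by edgeR's quasi-likelihood test and Benjamini-Hochberg adjustment), rank 393 of 16742 by p. The male log2 fold change of Il1rn was -0.12 (SE 0.45), and the interaction was 1.98 (SE 0.63, adjusted p = 0.206 by the same edgeR test and adjustment).

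Without female LKO replicate 4 the log2 fold change of Il1rn was 1.14, with an adjusted p of 0.0956 by edgeR's quasi-likelihood test and Benjamini-Hochberg adjustment. The call was also lost without female CRE- replicate 1, 2, 3 or 4 (adjusted p = 0.0561, 0.122, 0.109 and 0.0609 by the same edgeR test and adjustment). Of the male libraries it was lost without CRE- replicate 1 or LKO replicate 4, at adjusted p = 0.0503 and 0.0511 by the same edgeR test and adjustment, with a log2 fold change of 1.87 in both fits. With females fitted alone the adjusted p for Il1rn was 0.103 by the same edgeR test and adjustment. The ratio of Il1rn to Il1b, each per kilobase of exon, was 0.880, 0.696, 0.814 and 1.85 in female CRE- controls 1 to 4 and 0.602, 1.52, 1.05 and 3.48 in female LKO mice 1 to 4. The ratio overlapped between these groups, at 1.06 ± 0.530 against 1.66 ± 1.27 (SD, n = 4). In males it was 0.895 ± 0.589 in CRE- controls and 0.799 ± 0.230 in LKO mice (SD, n = 4).

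Levels of different genes were compared as RPKM, the CPM divided by the exon length in kilobases. In female CRE- controls Gsdmd had the highest level, 21.3 RPKM, followed by Il18 at 6.87, Il1rap at 6.81, Casp1 at 4.20 and Il1r1 at 3.43 RPKM. Below them came Il1rn at 2.07, Il1b at 1.99, Pycard at 1.63, Nlrp3 at 0.475 and Mefv at 0.371 RPKM. The steps from Gsdmd to Il18, from Il1rap to Casp1 and from Pycard to Nlrp3 exceeded the larger SD of the neighbouring genes, and the other steps did not. In female LKO mice Gsdmd was again highest, at 17.3 RPKM, and Il1r1 came next at 11.2 RPKM. Casp1 at 8.41, Il1rn at 7.51 and Il18 at 6.54 RPKM followed, and then Il1b at 4.69, Pycard at 3.91 and Il1rap at 3.13 RPKM. Nlrp3 at 1.27 and Mefv at 1.10 RPKM were lowest. Here the steps below Gsdmd, Il18 and Il1rap exceeded the larger SD of the neighbouring genes. The steps from Il1r1 to Casp1, from Casp1 to Il1rn and from Il1rn to Il18 did not, and only neighbouring genes were compared.

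The order in both male groups opened with Gsdmd, Il1rap, Il18, Il1r1, Casp1 and Il1b. Gsdmd was at 19.8 RPKM in male CRE- controls and 16.8 RPKM in male LKO mice, and Il1rap was at 8.79 and 9.20 RPKM. In both groups the steps below Gsdmd and below Il1rap exceeded the larger SD, whereas Il18 and Il1r1 did not differ beyond it. Mefv and Nlrp3 had the lowest levels in all groups, at 0.736 and 0.697 RPKM in male CRE- controls. Mefv had 22 to 233 counts per library and Nlrp3 48 to 394, and the part of counting error in their spread was not tested.

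Livers hold several cell types, and in bulk RNA fewer cells of a type and less RNA per cell cannot be told apart. The summed level of 11 macrophage and Kupffer cell markers was 987, 732, 812 and 1664 CPM in female CRE- controls 1 to 4 and 4550.5, 1251, 2937 and 1783 CPM in female LKO mice 1 to 4. Over all genes tested in females edgeR called 4.24%, DESeq2 11.1% and limma-voom 11.8%, and edgeR had 3584 of 16742 at an unadjusted p under 0.05, which is the background for the counts of markers. Of these 11 markers 1 rose in females by edgeR, Adgre1, while DESeq2 called 7 and limma-voom 10, with 9 at an unadjusted p under 0.05 and a median log2 fold change of 1.38. Cd5l was the most abundant, at a mean of 20.7% of the sum per library. In males the sum was 1122, 598, 319.6 and 1694 CPM in CRE- controls 1 to 4 and 1518, 827, 918 and 847 CPM in LKO mice 1 to 4. Female LKO replicate 2, in which Pycard and Casp1 lay among the controls, had the lowest macrophage sum of its group, and replicate 1, with the highest Nlrp3 and Pycard, had the highest. The library labelled male CRE- replicate 3, with the lowest Casp1, Il1b and Il18, had the lowest macrophage sum of all 16.

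The 8 markers of monocytes and recruited macrophages summed to 329, 188, 207 and 319 CPM in female CRE- controls 1 to 4 and to 485, 479, 678 and 611 CPM in female LKO mice 1 to 4. These groups did not overlap, and 2 of 8 markers rose in females by edgeR, Itgam and Trem2, while DESeq2 and limma-voom called 5 each, with 7 at an unadjusted p under 0.05 and a median log2 fold change of 1.83. Lyz2 was the most abundant of them and made up a mean of 67.8% of the sum per library. In males the sum was 387, 153, 109.8 and 565 CPM in CRE- controls 1 to 4 and 477, 245, 245 and 224 CPM in LKO mice 1 to 4.

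Neutrophil markers summed to 43.1, 24.7, 19.2 and 56.3 CPM in female CRE- controls 1 to 4 and to 152, 51.6, 92.5 and 691 CPM in female LKO mice 1 to 4. Female LKO replicate 4, which had the highest Il1rn, also had by far the highest neutrophil sum. In males the sum was 109, 24.3, 22.0 and 217 CPM in CRE- controls 1 to 4 and 31.1, 19.7, 16.2 and 14.9 CPM in LKO mice 1 to 4. Of 11 neutrophil markers 10 were tested and 4 rose in females by edgeR (Retnlg, Mmp8, Ngp and Ltf), while DESeq2 called 9 and limma-voom 4, with 9 at an unadjusted p under 0.05 and a median log2 fold change of 3.33. In males the median was -2.23, with 0 of 10 called by edgeR, 4 by DESeq2, 0 by limma-voom and 8 at an unadjusted p under 0.05. Over all genes tested in males edgeR called 0.454%, DESeq2 2.03% and limma-voom 0.884%. In edgeR 1595 of 16742 genes had an unadjusted p under 0.05 in males. S100a9 was the most abundant (a mean of 29.6% of the sum), Ly6g had no read in 9 libraries and was not tested, and Camp had none in male LKO replicate 4.

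Hepatocyte markers summed to 117253, 115845, 122055 and 135682 CPM in female CRE- controls 1 to 4 and to 54297, 94937, 93490.3 and 71226 CPM in female LKO mice 1 to 4. In males they summed to 73795, 102713, 111695 and 98472 CPM in CRE- controls 1 to 4 and to 68559, 83237, 95828 and 83385 CPM in LKO mice 1 to 4. The female groups did not overlap, while 0 of 7 hepatocyte markers were called in females by edgeR, 1 by DESeq2 and 0 by limma-voom, with 2 at an unadjusted p under 0.05 and a median log2 fold change of -0.55. Alb was the most abundant and made up a mean of 73.8% of the sum. The part that these marker levels had in the values of the 10 genes was not tested.

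**Figure D3:**
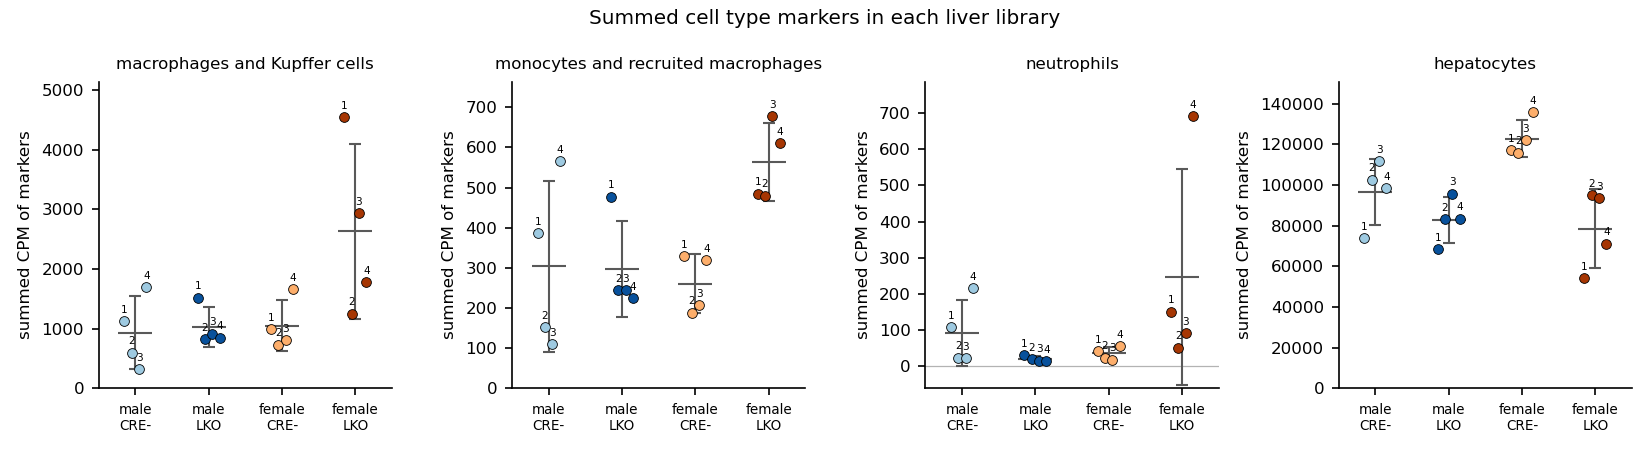
Summed CPM of the markers of macrophages and Kupffer cells, monocytes and recruited macrophages, neutrophils and hepatocytes in each library, with groups on the horizontal axis, replicate numbers beside the points and bars for the mean and SD of 4 libraries. Neutrophil markers reach 691 CPM in female LKO replicate 4, and hepatocyte markers are lowest in female LKO replicate 1, at 54297 CPM.

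Log2 CPM of each gene was set beside the log2 sums of these markers over the 16 libraries, as a description without a p, since the libraries share groups and depth. With the macrophage sum Pearson's r was 0.924 for Pycard, 0.905 for Casp1 and 0.879 for Il1b (n = 16). Taken as deviations from the group means, r was 0.921, 0.839 and 0.828 for Pycard, Casp1 and Il1b. Casp1 had r = 0.866 with the neutrophil sum and 0.846 with the monocyte sum for deviations. Il18 had r = 0.718 with the macrophage sum, and 0.812 for deviations. Gsdmd had r = 0.445 with the monocyte sum, and 0.827 for deviations. Nlrp3 had r = -0.649 with the hepatocyte sum, and -0.806 for deviations. For Il1r1 the r with the macrophage sum was 0.399, and -0.14 for deviations from the group means, and with the hepatocyte sum it was -0.696, and -0.464 for deviations. Il1b followed the monocyte sum most closely (r = 0.943, and 0.917 for deviations), a sum that is mostly Lyz2. Il1rn had r = 0.828 with the neutrophil sum, and 0.803 for deviations, whereas with the macrophage sum its r of 0.662 became 0.289 for deviations. By ranks the order was the other way, with Spearman's correlation of Il1rn at 0.900 with the macrophage sum and 0.729 with the neutrophil sum, and female LKO replicate 4 stood apart for Il1rn and for the neutrophil sum. Il1rap ran opposite to the neutrophil sum (r = -0.74, and -0.75 for deviations), the macrophage sum (r = -0.73, and -0.48 for deviations) and the monocyte sum (r = -0.71, and -0.55 for deviations). Its r with the hepatocyte sum was 0.397, and 0.546 for deviations.

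Among the 10 genes themselves, Pycard and Casp1 had the highest r of any pair over the 16 libraries (r = 0.874, and 0.867 for deviations from the group means). Nlrp3 and Pycard (0.873 and 0.852) and Casp1 and Il1b (0.854 and 0.827) followed. Il1r1 and Il1rn, both called in females, had an r of 0.613 that became 0.152 for deviations. Female LKO replicate 4 was highest for both genes, while female CRE- replicate 1 was the highest control for Il1r1 and replicate 4 the highest control for Il1rn. Il1rap ran opposite to Il1rn, with r = -0.89 and -0.67 for deviations.

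For each of the 10 genes the closest patterns were sought among 13078 other genes with a mean of at least 1 CPM, by Pearson's r of log2 CPM over 16 libraries. Nlrp3 was most like Csf2rb (0.976), Fyb1 (0.974) and Adcy7 (0.966), and Mefv most like Rgs1 (0.901), Dok3 (0.892) and Dennd1c (0.885). The closest to Pycard were Spic (0.980), Tm6sf1 (0.978) and Cyth4 (0.975), and to Casp1 they were Fxyd5 (0.965), Fcgr4 (0.961) and Vasp (0.952). Spic encodes a transcription factor of red pulp macrophages. The closest to Il1b were Igsf6 (0.984), Cd300lf (0.976) and Ncf4 (0.973), the last a subunit of the phagocyte oxidase. Il18 was most like Gimap7 (0.925), G6pc3 (0.886) and Lag3 (0.883), and Gsdmd most like H2-K1 (0.894), Bcat2 (0.875) and H2-T23 (0.863), where H2-K1 and H2-T23 are MHC genes. Spearman's correlation was lower for Il18, at 0.794 with Gimap7, 0.609 with G6pc3 and 0.615 with Lag3. For Gsdmd it was 0.712 with H2-K1, 0.832 with Bcat2 and 0.841 with H2-T23. Il1r1 was most like Fbxl14 (0.916), Mybl1 (0.910) and Fosl2 (0.896). Il1rn was most like Ifngr1 (0.944), Ly6d (0.941) and S100a11 (0.916). The closest to Il1rap were Sult2a8 (0.951), Keg1 (0.938) and Ces3b (0.937), which are known mainly as hepatocyte and kidney enzymes of conjugation and hydrolysis.

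Further genes of the pathway were taken from lists, whose female counts stand beside 4.24% of all genes called by edgeR, 11.1% by DESeq2, 11.8% by limma-voom and 3584 of 16742 at an unadjusted p under 0.05. Their male counts stand beside 0.454% by edgeR, 2.03% by DESeq2, 0.884% by limma-voom and 1595 of 16742 at an unadjusted p under 0.05. Of 17 other inflammasome sensors and cofactors, all tested, 3 rose and 0 fell in females by edgeR, while DESeq2 called 7 and limma-voom 4, with 10 at an unadjusted p under 0.05 and a median log2 fold change of 1.20. Nlrp12, a sensor known to restrain inflammatory signalling, rose in females by 1.95 on the log2 scale (SE 0.40, adjusted p = 0.0201 by edgeR's quasi-likelihood test and Benjamini-Hochberg adjustment). Nlrp12 was at 9.23, 7.18, 5.51 and 4.17 CPM in female CRE- controls 1 to 4 and at 11.9, 19.5, 51.2 and 18.1 CPM in female LKO mice 1 to 4. Female LKO replicate 3 stood far above the others, and every LKO library lay above every control in both sexes. In males its log2 fold change was 1.58, with an adjusted p of 0.109 by the same edgeR test and adjustment, and the interaction was 0.37 (SE 0.55). Nlrc4, which forms an inflammasome with NAIP receptors of bacterial proteins, had a female log2 fold change of 2.55 (adjusted p = 0.0388 by the same edgeR test and adjustment). Nlrc4 was low, at 0.321 to 0.621 CPM in female controls and at 7.96, 0.698, 0.896 and 1.88 CPM in female LKO mice 1 to 4. The value for Nlrc4 rested on LKO replicate 1, without which its log2 fold change was 1.27 and its adjusted p 0.179 by the same edgeR test and adjustment. The call of Nlrc4 was also lost without any of female CRE- replicates 1 to 4, with an adjusted p of up to 0.109 by the same edgeR test and adjustment. Leaving out male CRE- replicate 1 or male LKO replicate 2, 3 or 4 ended the call of Nlrc4 too (adjusted p up to 0.0531 by the same edgeR test and adjustment). Naip1, of the same NAIP family, had a female log2 fold change of 1.95 (adjusted p = 0.0431 by the same edgeR test and adjustment). Naip1 was low too, at 0.535 to 1.10 CPM in female controls and at 1.13 to 4.98 CPM in female LKO mice. The call of Naip1 was lost without any of female CRE- replicates 1 to 4 and without female LKO replicate 1 or 3, with an adjusted p of up to 0.139 by the same edgeR test and adjustment. Without male CRE- replicate 4 or male LKO replicate 2, 3 or 4 it was lost as well, with an adjusted p of up to 0.0556 by the same edgeR test and adjustment. Nlrp12 lost its call without female CRE- replicate 2, 3 or 4, with an adjusted p of up to 0.0695 by the same edgeR test and adjustment. Its log2 fold change was 1.34 once female LKO replicate 3 was left out. In males 0 of 17 were called by edgeR, 1 by DESeq2 and 0 by limma-voom, 2 had an unadjusted p under 0.05, and the median was -0.43.

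Of 9 other caspases and pyroptosis effectors 7 were tested, and in females 1 rose and 1 fell by edgeR, while DESeq2 and limma-voom called 3 each, with 4 at an unadjusted p under 0.05 and a median log2 fold change of -0.26. Casp4, encoding the caspase that senses cytosolic lipopolysaccharide and cuts gasdermin D, was at 3.66, 1.65, 2.59 and 1.74 CPM in female CRE- controls 1 to 4 and at 13.3, 4.51, 4.26 and 15.5 CPM in female LKO mice 1 to 4. The groups did not overlap, and LKO replicates 1 and 4 were the high libraries. Casp4 rose by 1.96 on the log2 scale (SE 0.49, adjusted p = 0.0367 by edgeR's quasi-likelihood test and Benjamini-Hochberg adjustment). That call was lost without female CRE- replicate 2, 3 or 4 or female LKO replicate 1 or 4, with an adjusted p of up to 0.128 by the same edgeR test and adjustment. Without male CRE- replicate 1 or male LKO replicate 2 or 4 it was lost too, with an adjusted p of up to 0.0516 by the same edgeR test and adjustment. Casp12 did not pass the test in females, at a log2 fold change of 1.37, and in males 0 of 7 were called by edgeR, 1 each by DESeq2 and limma-voom, with 1 at an unadjusted p under 0.05.

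Of 7 other ligands of the interleukin-1 family 3 were tested and 0 were called in females by edgeR, DESeq2 or limma-voom, with 1 at an unadjusted p under 0.05 and a median log2 fold change of 0.81. Il1a, which encodes the form released from dying cells, had a log2 fold change of 1.47 (SE 0.60), Il36g 0.81 (SE 0.67) and Il33 0.15 (SE 0.30). Il36a, Il36b, Il36rn and Il1f10 had too few reads to be tested. Of 9 other receptors and binding proteins of the family 6 were tested, and 1 fell and 0 rose in females by edgeR, while DESeq2 called 2 and limma-voom 3, with 3 at an unadjusted p under 0.05, a median log2 fold change of 0.68 and 5 of 6 positive. Sigirr, an orphan receptor known to dampen signalling, was at 29.2 to 41.3 CPM in female controls and at 17.7 to 27.7 CPM in female LKO mice, without overlap. Sigirr fell by 0.64 on the log2 scale (SE 0.18, adjusted p = 0.0497 by edgeR's quasi-likelihood test and Benjamini-Hochberg adjustment). The call held only without LKO replicate 2 among the 8 fits without a female library, and the adjusted p was otherwise up to 0.144 by the same edgeR test and adjustment. Of the male libraries, leaving out CRE- replicate 1 or 4 or any LKO library ended the call, with an adjusted p of up to 0.0694 by the same edgeR test and adjustment. The log2 fold changes of Il1rl2 at 1.73 (SE 0.56) and of the decoy receptor Il1r2 at 2.60 (SE 1.03) did not pass the test. In males 0 of 3 ligands and 0 of 6 receptors were called by edgeR, DESeq2 or limma-voom, with 0 at an unadjusted p under 0.05 in each list.

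Of 12 adaptors and kinases below the receptor, all tested, 1 rose and 0 fell in females by edgeR, DESeq2 and limma-voom called 1 each, 1 had an unadjusted p under 0.05, and the median log2 fold change was 0.20. Irak3, which encodes a kinase-like protein that restrains the pathway, was at 4.70, 1.60, 1.53 and 1.76 CPM in female CRE- controls 1 to 4 and at 13.2, 4.69, 5.25 and 23.6 CPM in female LKO mice 1 to 4. LKO replicate 2 lay just below the highest control, so the groups overlapped. Irak3 rose by 2.28 on the log2 scale (SE 0.61, adjusted p = 0.0459 by edgeR's quasi-likelihood test and Benjamini-Hochberg adjustment), and without female LKO replicate 4 it was 1.67 with an adjusted p of 0.117 by the same edgeR test and adjustment. Its call was also lost without female CRE- replicate 2, 3 or 4 or female LKO replicate 1, with an adjusted p of up to 0.151 by the same edgeR test and adjustment. Of the male libraries, leaving out CRE- replicate 1 or 4 or LKO replicate 2, 3 or 4 ended it, with an adjusted p of up to 0.0644 by the same edgeR test and adjustment. The shared adaptor Myd88 had a log2 fold change of 0.38 (SE 0.19) and Peli1 of 0.49 (SE 0.25), and neither passed the test. In males 0 of 12 were called by edgeR, DESeq2 or limma-voom, with 0 at an unadjusted p under 0.05.

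Of 12 genes that hepatocytes are known to induce on interleukin-1, 11 were tested and 0 were called in females by edgeR and 1 each by DESeq2 and limma-voom (beside 11.1% and 11.8% of all genes), with 7 at an unadjusted p under 0.05 (beside 3584 of 16742) and a median log2 fold change of 0.95. Nfkbia, an inhibitor of NF-κB, was at 41.5, 33.6, 48.0 and 49.0 CPM in female CRE- controls 1 to 4 and at 87.5, 62.3, 60.5 and 78.9 CPM in female LKO mice 1 to 4. These groups did not overlap, and the log2 fold change was 0.75 (SE 0.21, adjusted p = 0.0563 by edgeR's quasi-likelihood test and Benjamini-Hochberg adjustment). Lcn2, a secreted iron-binding protein, reached 4026 CPM in female LKO replicate 4, beside 307 CPM in the highest female control, and its log2 fold change of 3.31 (SE 1.21) did not pass the test. Orm2 had a log2 fold change of 2.61 (SE 0.92) and did not pass it either. In males 0 of 11 were called by edgeR, 1 by DESeq2 and 0 by limma-voom, with 3 at an unadjusted p under 0.05 and a median of -0.65. Beside these stand 0.454%, 2.03% and 0.884% of all genes called in males, and 1595 of 16742 at an unadjusted p under 0.05.

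The remaining lists marked other cells. By edgeR 1 of 6 markers of sinusoidal endothelium rose in females, Cdh5, and 3 of 4 proliferation markers rose, Top2a, Cdk1 and Ccnb1. Female log2 fold changes were positive for 4 of 6 endothelial markers, with a median of 0.52, while Clec4g was at -0.70 and Kdr at -0.12. At an unadjusted p under 0.05 in females there were 3 of 6 endothelial and 4 of 4 proliferation markers, beside 3584 of 16742 genes tested. Over all genes tested in females edgeR called 4.24%, DESeq2 11.1% and limma-voom 11.8%. In females DESeq2 called 2 endothelial and 4 proliferation markers, and limma-voom called 1 and 3. In males 0 of either list were called by edgeR, DESeq2 or limma-voom or had an unadjusted p under 0.05. Proliferation markers summed to 8.78, 6.72, 4.02 and 15.8 CPM in female CRE- controls 1 to 4 and to 71.2, 12.8, 27.9 and 28.1 CPM in female LKO mice 1 to 4. Female LKO replicate 1, highest for Nlrp3 and Pycard, was highest here as well, and Mki67 was the most abundant of the proliferation markers. By edgeR 0 of 6 dendritic cell markers, 0 of 9 T and NK cell markers, 0 of 6 B and plasma cell markers, 0 of 7 stellate cell and fibroblast markers, 0 of 5 cholangiocyte markers and 0 of 5 erythroid markers were called in either sex. At an unadjusted p under 0.05 there was 1 B and plasma cell marker in females, beside 3584 of 16742 genes tested. There were 4 erythroid markers in males, beside 1595 of 16742 genes tested. DESeq2 called 0 of them, and limma-voom called 1 T and NK cell marker and 1 stellate cell and fibroblast marker in females. The most abundant genes of these lists were Itgax, Nkg7, Jchain, Dcn, Sox9 and Hbb-bs, and that of the endothelial list was Stab2.

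All cell type markers called in females were tested without each library. Adgre1 lost its call without female CRE- replicate 1, 2, 3 or 4 and without female LKO replicate 1 or 3, with an adjusted p of up to 0.189 by edgeR's quasi-likelihood test and Benjamini-Hochberg adjustment. Without female LKO replicate 1 its log2 fold change was 1.21, beside 2.15 with all libraries. Itgam lost its call without female CRE- replicate 2, 3 or 4 or female LKO replicate 1 or 4 (adjusted p up to 0.121 by the same edgeR test and adjustment), and its log2 fold change was 2.0 in the fit lacking LKO replicate 1. Trem2, Cdh5 and Ccnb1 lost theirs without female CRE- replicate 2, 3 or 4 or female LKO replicate 1 (adjusted p up to 0.0868, 0.0745 and 0.0938 by the same edgeR test and adjustment). Cdk1 lost its call without female CRE- replicate 1, 2 or 3 or female LKO replicate 1 (adjusted p up to 0.0988 by the same edgeR test and adjustment). Of the fits without a female library, Retnlg, Mmp8 and Ltf were called only in those lacking LKO replicate 2 or 3, and Ngp and Top2a only in that lacking LKO replicate 2. Where these 5 lost their calls, the adjusted p was up to 0.115, 0.0847, 0.125, 0.155 and 0.139 by the same edgeR test and adjustment. In the fit lacking female LKO replicate 4 the log2 fold changes were 3.58 for Ltf and 2.79 for Ngp, beside 4.88 and 4.68 with all libraries, and 2.66 for Mmp8 and 2.04 for Retnlg. That of Top2a was 1.76 in the fit lacking female LKO replicate 1. Leaving out male libraries ended calls too: Adgre1 without CRE- replicate 1 or LKO replicate 2, 3 or 4, Ngp without CRE- replicate 1 or any LKO library, Ltf without CRE- replicate 1 or LKO replicate 2 or 4, and Top2a without CRE- replicate 1 or LKO replicate 2. The adjusted p was then up to 0.0614, 0.0661, 0.0524 and 0.0550 for Adgre1, Ngp, Ltf and Top2a by the same edgeR test and adjustment.

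Promoters are shown, with short sequence motifs, for Il1r1, Il1rn and Il1rap, called in females. Those of Nlrp3 and Il1b are also shown, genes that were not called but whose female groups did not overlap. Mefv, also without overlap and not called, has a window without a match and is not shown. Windows of 250 bases before to 50 after a start came from RefSeq (table build GRCm38.p6) and were placed on GRCm39 by exact match. Of the 10 genes 9 had a window, 13 windows in all, and each of the 13 matched once. Both strands were searched for the NF-κB consensus, for the AP-1 motif TGANTCA, for the PU.1 core GAGGAAGT, for the TATA box TATAAA and for TGACG, the core of the cAMP response element. These letters stood in 8.49%, 7.79%, 3.11%, 13.6% and 20.9% of 32544 windows of the same length. On the lines that follow capitals mark the matches, and no match overlapped one of another motif. The window of Nlrp3 at chr11:59432145-59432444 on the plus strand holds an NF-κB match at -186 to -177 from the start. That of Il1b at chr2:129213010-129213309 on the minus strand holds TATAAA at -31 to -26. The window of Il1rn at chr2:24226622-24226921 on the plus strand holds an AP-1 match at -141 to -135. Il1r1 has a window at chr1:40263990-40264289 on the plus strand, with TGACG in reverse at -23 to -19. Its inner window, at chr1:40305496-40305795 on the plus strand, holds an NF-κB match in reverse at -232 to -223. Both windows of Il1r1 lie within the annotated gene, at starts 2589 and 44095 bases from its outermost base. The window of Il1rap at chr16:26400205-26400504 on the plus strand holds none of these letters.
Nlrp3: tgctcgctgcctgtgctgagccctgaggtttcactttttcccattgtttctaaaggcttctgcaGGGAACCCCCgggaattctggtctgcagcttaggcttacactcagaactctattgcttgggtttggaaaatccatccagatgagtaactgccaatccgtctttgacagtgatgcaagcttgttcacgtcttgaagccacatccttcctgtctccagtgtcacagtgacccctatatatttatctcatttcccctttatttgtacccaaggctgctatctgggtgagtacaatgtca
Il1b: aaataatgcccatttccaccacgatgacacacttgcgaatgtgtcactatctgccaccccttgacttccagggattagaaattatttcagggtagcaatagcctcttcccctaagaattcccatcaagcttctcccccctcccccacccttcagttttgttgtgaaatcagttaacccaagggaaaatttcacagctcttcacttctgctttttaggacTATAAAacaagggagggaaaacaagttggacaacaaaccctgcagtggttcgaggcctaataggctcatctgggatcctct
Il1rn: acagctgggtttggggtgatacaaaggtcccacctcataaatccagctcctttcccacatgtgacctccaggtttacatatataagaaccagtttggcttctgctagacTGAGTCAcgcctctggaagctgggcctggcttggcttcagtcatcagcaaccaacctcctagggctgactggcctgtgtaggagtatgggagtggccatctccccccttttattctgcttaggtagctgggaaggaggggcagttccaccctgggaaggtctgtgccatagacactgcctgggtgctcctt
Il1r1 upstream window: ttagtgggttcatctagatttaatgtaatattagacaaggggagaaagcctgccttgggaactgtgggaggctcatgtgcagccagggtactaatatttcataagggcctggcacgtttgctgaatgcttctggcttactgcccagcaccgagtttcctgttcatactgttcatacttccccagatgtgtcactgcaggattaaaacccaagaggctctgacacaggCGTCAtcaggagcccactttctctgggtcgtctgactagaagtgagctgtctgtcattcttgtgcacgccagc
Il1r1 inner window: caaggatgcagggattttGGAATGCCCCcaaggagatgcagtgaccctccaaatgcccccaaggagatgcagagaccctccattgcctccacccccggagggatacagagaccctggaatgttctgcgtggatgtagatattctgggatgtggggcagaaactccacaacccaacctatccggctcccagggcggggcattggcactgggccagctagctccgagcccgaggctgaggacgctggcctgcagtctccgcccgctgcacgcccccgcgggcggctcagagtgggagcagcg
Il1rap: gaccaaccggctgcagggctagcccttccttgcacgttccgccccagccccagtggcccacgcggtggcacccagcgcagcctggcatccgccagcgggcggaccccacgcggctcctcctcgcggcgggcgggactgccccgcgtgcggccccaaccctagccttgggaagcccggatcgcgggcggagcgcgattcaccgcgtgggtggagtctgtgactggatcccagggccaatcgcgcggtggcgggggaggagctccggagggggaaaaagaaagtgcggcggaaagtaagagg

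Of the other windows, that of Pycard held GAGGAAGT in reverse at -44 to -37, that of Il18 held TATAAA in reverse at -175 to -170, and those of Mefv and Casp1 held no match. A further window of Nlrp3 held TGACG in reverse at 14 to 18, and of the other windows of Il1rn 1 held TATAAA in reverse at 14 to 19. A match describes the letters of a window and a window without a match lacks only these letters. Over the 13 windows the NF-κB consensus stood in 2, AP-1 in 1, PU.1 in 1, TATAAA in 3 and TGACG in 2.

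On GRCm39 the 10 genes lie on 7 chromosomes. Il1b (chr2:129206490-129213059, minus strand) and Il1rn (chr2:24226872-24241503, plus strand) share chromosome 2, and Casp1 (chr9:5298517-5307281) and Il18 (chr9:50466000-50493141), both on the plus strand, share chromosome 9. Mefv (chr16:3524838-3536073, minus strand) and Il1rap (chr16:26400259-26548878, plus strand) share chromosome 16. Nlrp3 is at chr11:59432395-59457781 and Il1r1 at chr1:40261651-40355361, both on the plus strand. Pycard is at chr7:127590545-127593039 on the minus strand and Gsdmd at chr15:75733990-75739257 on the plus strand. The merged exons are longest in Il1rap, at 13345 bases, and shortest in Casp1, at 1513 bases.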

How the data were processed

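Poly-A RNA of 16 livers was sequenced in paired reads. Alignment to GRCm39 was done by the authors with STAR 2.7.1a, and featureCounts (Subread 2.0.6) assigned reads to genes by strand. The deposited values are raw counts for each gene in each library. Their command counts each read of a pair, so a fragment can count more than once. Here, filterByExpr at a minimum count of 10 left 16742 of 41079 genes, which were normalized by TMM and fitted in 4 groups with edgeR 4.0.16 in R 4.3.3. The quasi-likelihood test was used with Benjamini-Hochberg adjustment over all genes tested and a threshold of 0.05. Log2 CPM had a prior count of 2. The 10 members, the lists and the marker genes were chosen with earlier results of these data known.

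The genes named are the members, Gcgr, from each pathway list every gene called in either sex (1 called gene is left out of the text) and those with the smallest female p until 3 were named, the 3 genes most like each member, and from each marker list the most abundant gene and those called. Markers covered macrophages, monocytes, neutrophils, dendritic cells, B and plasma cells, T and NK cells, endothelium, stellate cells, cholangiocytes, hepatocytes, erythroid cells and proliferation. Alternatives were DESeq2 1.42.0, limma-voom (limma 3.58.1) with sample quality weights, each sex fitted alone, RLE normalization, other filters on low counts, a replicate block, a block by the number in the library name (added after the values were seen), an adjusted p under 0.01 and leaving out each library. The fitting steps were tested on simulated data. The labels call the libraries of a group biological replicates.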

Additional observations from a re-analysis of the deposited data

Results flagged for a closer look

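Within each group of 4 libraries, the gap between the highest or lowest value and its nearest neighbour was divided by the range of the group. Of 96 groups tested, for the 10 genes, Gcgr, the marker sums and the ratio of Il1rn to Il1b, 11 held a library that stood apart. The limit set on that gap would flag about 1 in 20 groups of independent, normally distributed values. CPM, marker sums and ratios need not be such values, and the groups share libraries, so the rate by chance here was not tested. Male LKO replicate 1 stood apart for Il1b, at 7.31 CPM beside 2.84 to 3.23 CPM (gap 0.912 of the range), for the macrophage marker sum (0.8693) and for the monocyte marker sum (0.916). The same library was lowest for Il1rap, at 88.2 CPM beside 130.5 to 138 CPM (0.8444). Female LKO replicate 4 stood apart for Il1rn, at 45.8 CPM beside 9.79 to 14.8 CPM (0.86), and for the neutrophil marker sum, at 691 CPM beside 51.6 to 152 CPM (0.8437). Il18 was lowest in male LKO replicate 3, at 10.5 CPM beside 13.4 to 13.6 CPM (0.9498). Gcgr was lowest in the library labelled male CRE- replicate 3, at 127 CPM beside 189.6 to 193 CPM (0.9495). The B and plasma cell marker sum was lowest in male LKO replicate 4, at 38.5 CPM (0.8401), and the endothelial marker sum in female CRE- replicate 1, at 196 CPM (0.9146). The ratio of Il1rn to Il1b was highest among female controls in replicate 4, at 1.85 beside 0.696 to 0.880 (0.8402).

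For Mmp8, a neutrophil granule protease, every female LKO library lay above and every male LKO library below the controls of its sex. The log2 fold changes differed by 6.3212 between the sexes, with an adjusted p of 0.104 by edgeR's quasi-likelihood test and Benjamini-Hochberg adjustment, so the interaction did not pass the threshold.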

How the results depend on the processing

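Over all alternatives, 600 comparisons kept direction and side of the threshold or stayed within 1.5 times a count. The exceptions follow, and the cause was not tested. Genes called in males numbered 76, and 22 at an adjusted p under 0.01, 339 with DESeq2, 148 with limma-voom, 26 to 49 without 1 male library and 50 to 111 without 1 female library. In females 710 became 51 at an adjusted p under 0.01, 1816 with DESeq2, 119 with females fitted alone, 1244 with the replicate block, 1074 with the block by library name, 1976 with limma-voom, 87 to 1310 without 1 female library and 427 to 821 without 1 male library. Of the 10 genes, 3 were called in females, and 1 at an adjusted p under 0.01 and with females fitted alone, 5 with DESeq2 and with the replicate block, 7 with limma-voom, 1 to 4 without 1 female library and 2 to 3 without 1 male library. For the sex difference 0 genes became 371 with DESeq2, 12 without a filter, 29 with limma-voom and 0 to 14 without 1 library, and of the 10 genes 3 with DESeq2 and 1 with limma-voom. The female log2 fold change of Gcgr lost its call at -0.91 with females fitted alone, -0.92 without a filter and -0.89 with at least 10 counts in every library, and lay between -1.11 and -0.69 without 1 female library. Signs turned only for fold changes that were not called. In males these were Casp1 with limma-voom (-0.19) and Il1rn and Il18 with the replicate block (0.0031 and 0.0067). In females Il18 became 0.076 with limma-voom. For the sex difference Gsdmd became 0.30 with limma-voom, and Il18 0.017 with DESeq2, 0.018 with RLE, 0.013 without a filter, 0.036 with at least 10 counts in every library and 0.26 with limma-voom. Without 1 male library, male values ranged from -0.51 to 0.12 for Pycard, -0.15 to 0.48 for Casp1, -0.75 to 0.14 for Il1b, -0.20 to 0.064 for Il1r1, -0.28 to 0.17 for Il1rn, -0.39 to 0.13 for Il18 and -0.0070 to 0.18 for Il1rap. The same range was -0.19 to 0.13 for Il18 in females without 1 female library, and for the sex difference without any 1 library -0.23 to 0.15 for Gsdmd and -0.20 to 0.33 for Il18. The labels name no shared source for equal replicate numbers, and not every pair deviated together, so the livers were not treated as pairs: deviations of same-numbered livers from their group means correlated at 0.170, 0.170, 0.144 and -0.01 in males and at 0.173, 0.105, 0.117 and 0.028 in females, and 2 of 4 male controls, 3 of 4 male LKO, 2 of 4 female controls and 2 of 4 female LKO livers correlated best with their own number. Numbers in the library names differ in part from the replicate numbers, and a block by them was added after the values were seen. Livers that share such a number correlated at 0.170, 0.170 and 0.144 in males and at 0.173, 0.105 and -0.018 in females. With that replicate block 60 genes were called in males, 1074 in females and 0 for the sex difference, and of the 10 genes 0, 4 (with Nlrp3 added) and 0. Male values that turned sign with it were 0.046 for Pycard, 0.11 for Il1b, 0.14 for Il1r1, 0.22 for Il1rn, 0.076 for Il18 and -0.049 for Il1rap, and none was called. Counts per library were as low as 22 for Mefv and 48 for Nlrp3, and the part of counting error in their spread was not tested. The 4 livers per group limit every test.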
